A study of Rattus norvegicus with 3 samples.

Results

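The neurotrophins and their receptors are a family of secreted growth factors and the membrane proteins that bind them. Described here are the ligands Bdnf, Ntf3 and Gdnf and the receptors Ntrk2, Ntrk3 and Ngfr. A probe belonged to a member when it was not a control probe and its RefSeq accession carried the rat symbol of that member. The 6 members made up 6 of the 38973 genes on the array and were read by 12 probes. Expression was measured in cerebellar cortex of male Wistar rats at 9 weeks of age, 2 days after surgery. In the MCAO group, the right middle cerebral artery had been occluded for a time and then reopened, and both sides of the cerebellum were taken. The left cortex lay contralateral to the infarct and the right cortex ipsilateral to it. The control was left cerebellar cortex of rats with a sham operation, so the ipsilateral pool also differed from it in side. Each of the 3 arrays carried RNA pooled from 4 rats, and both MCAO pools came from the same animals. With 1 array per group no test was possible, and the differences below are those between single pools.

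Neurotrophins act through Trk receptor tyrosine kinases, of which TrkB, the product of Ntrk2, binds BDNF, and TrkC, the product of Ntrk3, binds NT-3, the product of Ntf3. Ngfr encodes the p75 receptor, which binds all mature neurotrophins and, with sortilin, their uncleaved proforms. GDNF is a ligand of another family and signals through a GFRα coreceptor and the Ret kinase. In the cerebellum, granule cells make and respond to BDNF, and the transcription of Bdnf is known to depend on neuronal activity.

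Levels are given as scaled intensity, the background-subtracted fluorescence of a spot in arbitrary units after each array had been brought to the same 75th percentile. Ratios are differences of log2 scaled intensity, and the value after ± is the error that the scanner software assigns to them, which covers neither rats nor hybridisations. A spot was called detected when the software marked it as well above background. Of 58717 spots, 42470 were detected contralaterally, 43028 ipsilaterally and 43283 in the control, and none was saturated. The members had 32 spots, of which 31 entered the analysis. Every probe of 5 members was well above background on all 3 arrays, as it was for 22085 genes in all. The sixth member, Gdnf, was not well above background on any array.

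Bdnf, whose product supports the survival and synapses of cerebellar neurons, was read by probe A_44_P437896 for NM_012513. Its scaled intensity was 96.2 contralaterally, 138 ipsilaterally and 136 in the control. The contralateral pool was thus the low one, and the ipsilateral and control pools lay side by side. The log2 ratio to control was -0.50 ± 0.21 contralaterally and 0.02 ± 0.21 ipsilaterally. Both ratios share the control array. Between the sides of the MCAO group, the contralateral minus ipsilateral difference was -0.52 ± 0.21, again beyond the scanner error. With no scaling this difference was -0.14 and the ipsilateral ratio -0.51, where all genes had medians of 0.37 and -0.50, and with normexp, a background correction with an offset of 50, the contralateral ratio was -0.28. Among 2777 other genes of like brightness, within 0.5 on the log2 scale, 4.61% had a lower contralateral ratio than Bdnf and 1.98% a lower difference between the sides. Over all 22085 genes detected with every probe these shares were 5.38% and 6.36%. Bdnf is transcribed from several promoters, and 1 probe for the gene does not tell their transcripts apart. In a pool of whole tissue, fewer cells of a type and less RNA per cell cannot be told apart.

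Ntf3, which encodes NT-3, was read by probe A_44_P496447 for NM_031073. The scaled intensity of Ntf3 was 33.9 contralaterally, 41.7 ipsilaterally and 62.8 in the control. Control was the highest pool, followed by ipsilateral and then contralateral, with each step larger than its scanner error. The log2 ratio to control was -0.89 ± 0.23 contralaterally and -0.59 ± 0.23 ipsilaterally, and the difference between the sides was -0.30 ± 0.24 (0.081 with no scaling, where all genes had a median of 0.37). The step between the sides was the smaller one. It was -0.13 with spike-in scaling and -0.13 with quantile normalization, both smaller than 0.24, and 27.9% of 2783 genes of like brightness had a lower difference. A lower contralateral ratio was found for 1.25% of the 22085 genes detected with every probe. Among the genes of like brightness that share was 2.91%, since dim genes scattered more: their central 90% ran from -0.73 to 0.77. The size of the Ntf3 ratio depended on how low signals were treated. With 50 added to each signal before scaling, it was -0.38 contralaterally and -0.040 ipsilaterally. The main scaling factors were 0.95 contralaterally, 1.24 ipsilaterally and 0.85 in the control. A constant added before such scaling draws dim ratios to control towards positive values, most of all ipsilaterally.

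Gdnf, whose product is a survival factor for midbrain dopamine neurons, was read by probe A_64_P004162 for NM_019139. Its scaled intensity was 2.23 contralaterally, 4.22 ipsilaterally and 2.15 in the control. These values lay under the dimmest detected spot of each array, at 9.12, 12.4 and 8.72 in the same order. No ratio is given for Gdnf, since no array measured it above background.

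**Figure D1:**
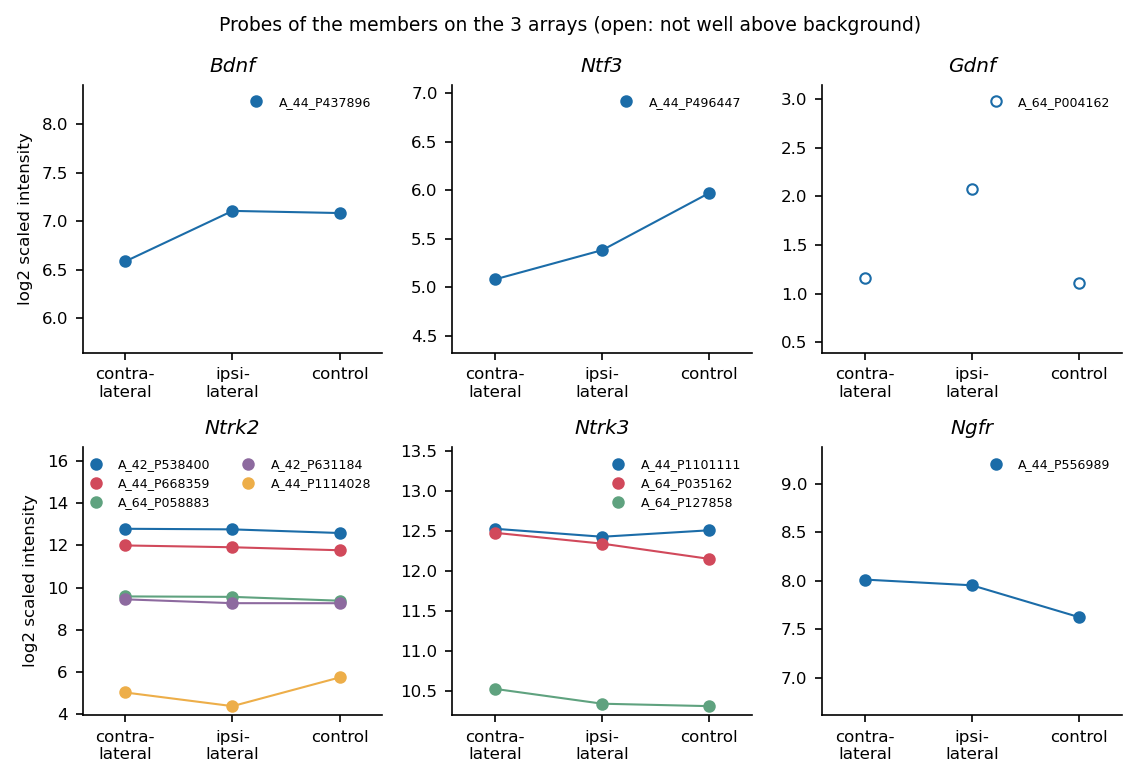
Scaled intensity on the log2 scale (vertical axis, arbitrary units, a separate range in each panel) of every probe of the 6 members, with 1 point for each of the contralateral, ipsilateral and control pools. Bdnf was low on the contralateral array alone, Ntf3 was highest on the control array, Ngfr was lowest there, and the open points of Gdnf were not well above background.

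Ntf4, a further ligand of TrkB, was detected in the control only, at 70.3, with 5.82 contralaterally and 11.7 ipsilaterally. Against the higher of its own signal and the dimmest detected spot of each array, Ntf4 was 7.71-fold lower contralaterally and 5.67-fold lower ipsilaterally. These are no strict bounds, since a spot that is not detected can be brighter than the dimmest detected one. In the control, Gfra3 had 11.1 and was not detected, while the dimmest detected spot had 8.72. Ntf4 was thus read through the control array alone and is not counted with Bdnf and Ntf3, the 2 ligands detected on every array. Both of these had a lower signal contralaterally than in the control. Their median log2 ratio was -0.69 contralaterally and -0.28 ipsilaterally, where all 22085 genes had medians of 0.01 and 0.03. It was -0.28 and 0.036 with normexp and -0.35 and 0.054 with 50 added, so the ipsilateral median turned its sign. The ipsilateral median of all genes was then 0.12 with both settings, and the median of the ligands stayed below it. The list was chosen with results for some of these genes known, and the 3 ligands rest on 1 probe each.

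Promoter sequences from RefSeq on the GRCr8 build are shown for genes that were lower contralaterally, the ligands Bdnf and Ntf3 and the activity-dependent genes Egr4 and Nr4a1 described further on. Each window runs from 250 bases before to 50 bases after an annotated start. Of the 6 members, 3 matched the table: Bdnf with 6 windows, Ntf3 with 3 and Gdnf with 1. Fos, a further activity-dependent gene that was lower contralaterally, had no window. Capitals mark TGACG, the core of the element bound by the activity-dependent factor CREB, and GGGCGG, the GC box, on either strand, so that they also read CGTCA and CCGCCC. For each gene the window with the most TGACG is shown, or the first where none had it, so the Bdnf window was picked for its match. It is the fourth in order along the gene (chr3:116637608-116637907, plus strand), and the Ntf3 window is the outermost of 3 (chr4:160670574-160670873, minus strand). Those of Egr4 (chr4:119607768-119608067, minus strand) and Nr4a1 (chr7:134259888-134260187, plus strand) are the single windows of these genes.
Bdnf: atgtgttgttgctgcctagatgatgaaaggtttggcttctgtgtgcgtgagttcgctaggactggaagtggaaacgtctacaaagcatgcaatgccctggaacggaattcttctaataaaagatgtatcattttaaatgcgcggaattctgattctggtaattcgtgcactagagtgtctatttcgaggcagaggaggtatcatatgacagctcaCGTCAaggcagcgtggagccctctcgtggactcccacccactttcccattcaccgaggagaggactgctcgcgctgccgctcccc
Ntf3: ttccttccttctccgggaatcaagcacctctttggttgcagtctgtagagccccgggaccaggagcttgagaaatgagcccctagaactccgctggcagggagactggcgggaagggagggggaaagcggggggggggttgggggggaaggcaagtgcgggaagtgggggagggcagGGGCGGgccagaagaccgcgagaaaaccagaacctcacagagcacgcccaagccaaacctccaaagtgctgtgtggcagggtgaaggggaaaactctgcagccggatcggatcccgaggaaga
Egr4: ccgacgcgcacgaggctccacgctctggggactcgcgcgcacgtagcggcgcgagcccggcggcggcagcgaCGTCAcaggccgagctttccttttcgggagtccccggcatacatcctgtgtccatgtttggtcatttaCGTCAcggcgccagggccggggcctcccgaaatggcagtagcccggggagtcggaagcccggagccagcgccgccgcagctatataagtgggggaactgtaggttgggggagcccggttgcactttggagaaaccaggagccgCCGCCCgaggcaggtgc
Nr4a1: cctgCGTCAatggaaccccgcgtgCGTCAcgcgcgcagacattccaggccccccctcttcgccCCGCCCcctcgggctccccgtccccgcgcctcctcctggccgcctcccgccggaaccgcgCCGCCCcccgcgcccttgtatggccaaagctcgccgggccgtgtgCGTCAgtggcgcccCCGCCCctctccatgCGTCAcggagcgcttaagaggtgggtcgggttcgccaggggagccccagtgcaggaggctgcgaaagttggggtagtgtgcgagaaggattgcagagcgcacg
The Bdnf window held TGACG once, on the other strand, 35 bases before the start, and no other of the 6 Bdnf windows held it. The single window of Gdnf, which was not detected, also held TGACG once, and TATAAA once. None of the 3 Ntf3 windows did, whereas GGGCGG was in all 3. The Egr4 window held TGACG 2 times and that of Nr4a1 4 times. Over all 33469 promoter windows of this length, 21.2% held TGACG and 33.1% held GGGCGG. The full palindrome TGACGTCA, which contains TGACG, was present in 1.83% of windows and TATAAA in 14.2%, and the 4 sequences shown held neither. A match describes the sequence and shows no binding.

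Of the receptors, Ntrk2 was read by 5 probes, which disagreed. Probe A_42_P538400 for NM_012731 had a mean scaled intensity of 7041 contralaterally, 6906 ipsilaterally and 6132 in the control over 9 spots. For A_44_P668359, directed at NM_001163168, the values were 4076, 3842 and 3483 over 10 spots. On both probes the control was the lowest array and the contralateral array the highest. A_64_P058883 for NM_012731 gave 767, 756 and 666, and A_42_P631184 for NM_001163168 gave 697, 614 and 614. The log2 ratios of these 4 probes lay between 0.18 and 0.23 contralaterally and between 0.00 and 0.18 ipsilaterally, with a scanner error of 0.20 each. The remaining probe, A_44_P1114028 for the predicted transcript XM_006253507, had a low signal and went the other way. Its scaled intensity was 32.9 contralaterally, 21.0 ipsilaterally and 53.8 in the control. The log2 ratio of this probe was -0.71 ± 0.23 contralaterally and -1.36 ± 0.29 ipsilaterally.

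The mean over all 5 Ntrk2 probes therefore hid both patterns. It came to 872 contralaterally, 763 ipsilaterally and 860 in the control, with log2 ratios of 0.02 ± 0.21 and -0.17 ± 0.22. Without the dimmest probe, an alternative chosen after its values were seen, Ntrk2 stood at 1979, 1873 and 1719, and the ratios were 0.20 and 0.12. The ipsilateral ratio of Ntrk2 thus turned its sign with 1 dim probe. Replicate spots showed how closely an array repeats itself. Over the 9 spots of A_42_P538400 the contralateral ratio ran from 0.16 to 0.24, and over the 10 spots of A_44_P668359 from 0.14 to 0.31, so every spot of both probes was brighter than in the control. The ipsilateral ratio ran from 0.12 to 0.20 and from 0.04 to 0.20. Such spots share 1 pool and 1 hybridisation and are not replicates of a condition.

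Ntrk3 was read by 3 probes, all bright. Probe A_64_P035162 for NM_001270656 had scaled intensities of 5722 contralaterally, 5210 ipsilaterally and 4565 in the control. A_64_P127858 for NM_019248 gave 1479, 1300 and 1273, and A_44_P1101111 for the predicted transcript XM_008759513 gave 5927, 5531 and 5850. Contralateral was the highest array on each, while the place of the ipsilateral array varied. The contralateral log2 ratios were 0.33, 0.22 and 0.02 in the same order, and the ipsilateral ratios 0.19, 0.03 and -0.08. Only the contralateral ratios of the former 2 exceeded the scanner error of 0.20. For the mean over the probes of Ntrk3 the intensities were 3687, 3346 and 3240, and the ratios 0.19 ± 0.20 contralaterally and 0.05 ± 0.20 ipsilaterally. The mean thus lay within the scanner error on both sides, although 2 of the probes did not contralaterally, and with median scaling its contralateral ratio was 0.22.

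Ngfr, the gene of the p75 receptor, was read by probe A_44_P556989 for NM_012610. It had a scaled intensity of 258 contralaterally, 248 ipsilaterally and 198 in the control. Both MCAO pools were above control and differed little from each other. The log2 ratio was 0.39 ± 0.20 contralaterally and 0.33 ± 0.21 ipsilaterally, and the difference between the sides was 0.06 ± 0.21. Among 2628 genes of like brightness, 4.87% had a higher contralateral ratio and 8.26% a higher ipsilateral one. With no scaling the ipsilateral ratio of Ngfr was -0.21, and the median of all genes was then shifted to -0.50. Such a setting shifts all genes of an array alike, so the ratio relative to that median, 0.30, cannot change with it.

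**Figure D2:**
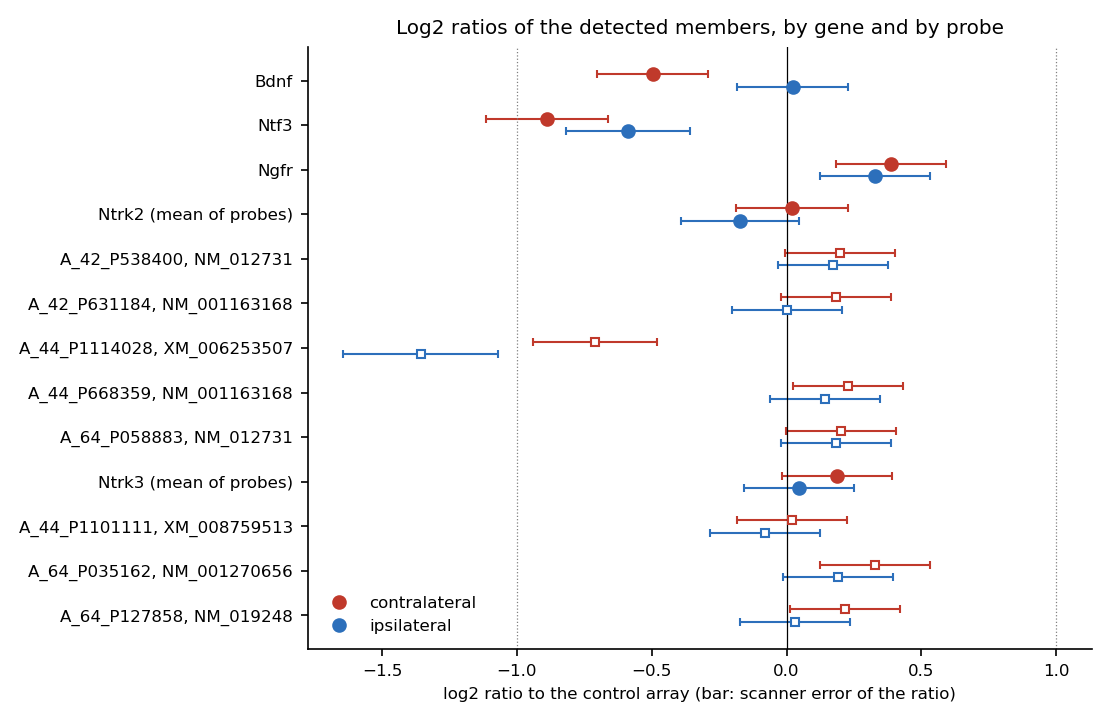
Log2 ratio to the control array (horizontal axis) for each detected member (filled circles) and for each probe of Ntrk2 and Ntrk3 (open squares), contralateral in red and ipsilateral in blue. Bars are the scanner error and the dotted lines mark 1 and -1. Bdnf and Ntf3 lay below 0 contralaterally and Ngfr above 0 on both sides, and A_44_P1114028 stood apart from the other Ntrk2 probes.

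With the main scaling, the difference between the sides lay within the scanner error for the receptors. Contralateral minus ipsilateral, it was 0.19 ± 0.22 for Ntrk2, 0.14 ± 0.20 for Ntrk3 and 0.06 ± 0.21 for Ngfr. Bright genes scattered less than dim ones. Among genes of like brightness, 3.63% had a higher difference than Ntrk2, 4.66% than Ntrk3 and 36.5% than Ngfr. Over all 22085 genes, 91.5% had a lower difference than Ntrk2, 86.2% than Ntrk3 and 70.4% than Ngfr. The difference of Ntrk2 rested on its dimmest probe and was 0.079 without it. With spike-in scaling the differences were 0.37, 0.31 and 0.23 for Ntrk2, Ntrk3 and Ngfr, where the median of all genes moved alike, to 0.16. With quantile normalization that of Ntrk2 was 0.26, beyond its scanner error, and with 50 added that of Ngfr was -0.0088. Bdnf and Ntf3 were lower contralaterally than ipsilaterally, while the 3 receptors had higher values there. With the main scaling none of the 5 detected members passed a log2 ratio of 1 or -1 in any comparison. Among the 22085 genes, 2.26% did so contralaterally, 3.89% ipsilaterally and 1.76% between the sides. With no scaling Ntf3 did, at -1.04 contralaterally and -1.12 ipsilaterally, where 323 and 1139 of all genes lay below -1. With 5 members, none past these limits with the main scaling is near its background.

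Further receptors are sortilin and its relatives. Sort1, which encodes sortilin, had log2 ratios of -0.05 and 0.00, and Sorcs2 had 0.10 and -0.02. Sorcs3 had 0.21 ± 0.21 and 0.08 ± 0.21, and Sorcs1, not detected with every probe, 0.37 ± 0.45 and -0.03 ± 0.62, both named after their values were seen. Over the 6 receptor genes reported and detected with every probe, the median was 0.14 contralaterally and 0.02 ipsilaterally. Ngfr had the highest ratio on both sides, and the lowest was that of Sort1 contralaterally and Ntrk2 ipsilaterally. None of the 6 passed 1 or -1.

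In the GDNF family, Ret, the signalling receptor, was above control on both MCAO arrays. The scaled intensity of Ret was 410 contralaterally, 411 ipsilaterally and 287 in the control, and the log2 ratios were 0.51 ± 0.20 and 0.52 ± 0.20. With no scaling the ipsilateral ratio was -0.015 for Ret and -0.014 for Nrtn, which is 0.49 above the median of all genes for both. Probe A_64_P154019 of Ret gave 0.73 and 0.62, and A_64_P154024 gave 0.30 and 0.42. Nrtn, which encodes the GDNF relative neurturin, had 1236, 1419 and 990.2, with ratios of 0.32 ± 0.20 and 0.52 ± 0.20. Artn had ratios of 0.20 and -0.01, and Pspn -0.13 and 0.00. The coreceptor of GDNF, Gfra1, had 4 probes. Of these A_43_P11634 and A_44_P1160578 gave contralateral ratios of -0.56 and -0.52 and ipsilateral ratios of -0.48 and -0.57, A_44_P107308 gave -0.59 and 0.31, and A_44_P1102023 was not well above background. Gfra2, the coreceptor of neurturin, had ratios of -0.12 and 0.22, and its 2 probes went opposite ways contralaterally, 0.20 for A_42_P791436 and -0.44 for A_64_P007628. Gfra3 was not detected on any array. For Gfra4, of 3 probes only A_44_P1103985 was detected on all arrays, with -0.34 and -0.53. Over the 6 genes of this list detected with every probe the median was 0.04 contralaterally and 0.11 ipsilaterally, none passed 1 or -1, and the lowest ratio on either side was that of the adhesion molecule Ncam1, -0.19 and -0.11.

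Downstream of the receptors, list medians lay near control. Of the adaptors and kinases of Trk signalling, 39 were detected with every probe, with a median of 0.08 contralaterally and 0.03 ipsilaterally, and none passed 1 or -1 against control. Their contralateral ratios ran from -0.59 for the adaptor Shc3 to 0.44 for the adaptor Frs3, and their ipsilateral ratios from -0.37 for the adaptor Gab1 to 0.62 for the adaptor Gab2. At the shares of all genes, 2.26% and 3.89%, none of 39 past the limits is near the background. The 20 partners and effectors of p75 had medians of 0.00 and -0.03, with none past the limits. With no scaling, Adam17 here, Pcsk5 of the list on sorting and cleavage and Ptn of the other factors lay below -1 ipsilaterally. So did 1139 of all genes, whose median was then -0.50. In the p75 list, Bex3, which binds the p75 receptor, was the highest at 0.19 and 0.23. The protease Adam17, which sheds the receptor, was the lowest at -0.30 and -0.65. Among the genes that sort and cleave proneurotrophins, 9 of 15 were detected with every probe, with medians of 0.08 and 0.00. The proprotein convertases gave the extremes of that list, Pcsk5 with -0.39 and -0.55, Pcsk6 with 0.22 contralaterally and Pcsk7 with 0.19 ipsilaterally.

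Genes known to respond to BDNF and TrkB signalling included several below control. Of 24 such genes, 20 were detected with every probe, 16 of them with a negative contralateral ratio and 13 with a negative ipsilateral one, where 10508 and 9747 of all 22085 genes had negative ratios. The median was -0.15 contralaterally and -0.06 ipsilaterally. It was -0.039 and 0.043 with normexp and -0.053 and 0.044 with 50 added, so the ipsilateral median turned its sign. The ipsilateral median of all genes was then 0.12 with both settings, and that of the list stayed below it. On the contralateral side 3 of the 20 lay below -1 and none above 1, where 188 of 22085 genes lay below -1 and 312 above 1. On the ipsilateral side none of the 20 passed either limit, but this depended on the scaling. With no scaling 3 lay below -1 ipsilaterally and 4 contralaterally, with spike-in scaling 2 did ipsilaterally, and with the values deposited by the authors 1 did.

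The 3 responsive genes below -1 contralaterally encode transcription factors of the early response to activity. Fos had a scaled intensity of 95.0 contralaterally, 119.9 ipsilaterally and 237 in the control, with log2 ratios of -1.32 ± 0.21 and -0.98 ± 0.21. Nr4a1 had 937, 1208 and 2250, with -1.26 ± 0.20 and -0.90 ± 0.20. Egr4 had 592, 847 and 1307, with -1.14 ± 0.20 and -0.63 ± 0.20. All 3 had the order of Ntf3: control highest, ipsilateral next and contralateral lowest. With no scaling the order of the sides turned for Fos and Nr4a1, whose contralateral minus ipsilateral differences were 0.046 and 0.015, and not for Egr4, at -0.13. All genes then had a median difference of 0.37. This setting shifts all genes of an array alike, so the values relative to that median, -0.33, -0.36 and -0.51, cannot change. The ipsilateral ratios with no scaling were -1.52, -1.43 and -1.16, where all genes had a median of -0.50. With spike-in scaling those of Fos and Nr4a1 were -1.24 and -1.15, and with the deposited values that of Fos was -1.04. Nr4a2, which encodes a relative of Nr4a1, was the fourth gene below -1 contralaterally with no scaling, and is named after its values were seen. With 50 added to each signal the contralateral ratio of Fos was -0.98, so that it no longer passed -1, and with normexp it was -0.86. Fosb was detected in the control at 22.3 and ipsilaterally at 27.5 but not contralaterally. Its contralateral signal of 9.16, not well above background, was 2.44-fold lower than that in the control. Not all early genes lay that far below control, since Egr1 had ratios of -0.10 and -0.09 and Arc -0.16 and -0.25. The highest ratios of the list were 0.33 for the phosphatase Dusp6 contralaterally and 0.91 for Egr3 ipsilaterally. Egr3 was dim, at 16.1, 32.7 and 17.4, and lower contralaterally than ipsilaterally by a difference of -1.02. Egr1 and Arc were named after their values were seen.

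Among other neurotrophic factors, 9 of 11 genes were detected with every probe, with a median of -0.24 contralaterally and -0.03 ipsilaterally and none past 1 or -1. The contralateral median was -0.0047 with normexp and -0.043 with 50 added. Cdnf had the lowest contralateral ratio, with a scaled intensity of 45.0 contralaterally, 71.7 ipsilaterally and 72.7 in the control. As with Bdnf, its contralateral ratio of -0.69 stood beside an ipsilateral one of -0.02. Ptn, which encodes the growth factor pleiotrophin, was lower on both sides with -0.65 and -0.65, and the cytokine gene Lif was the highest with 0.41 and 0.74.

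**Figure D3:**
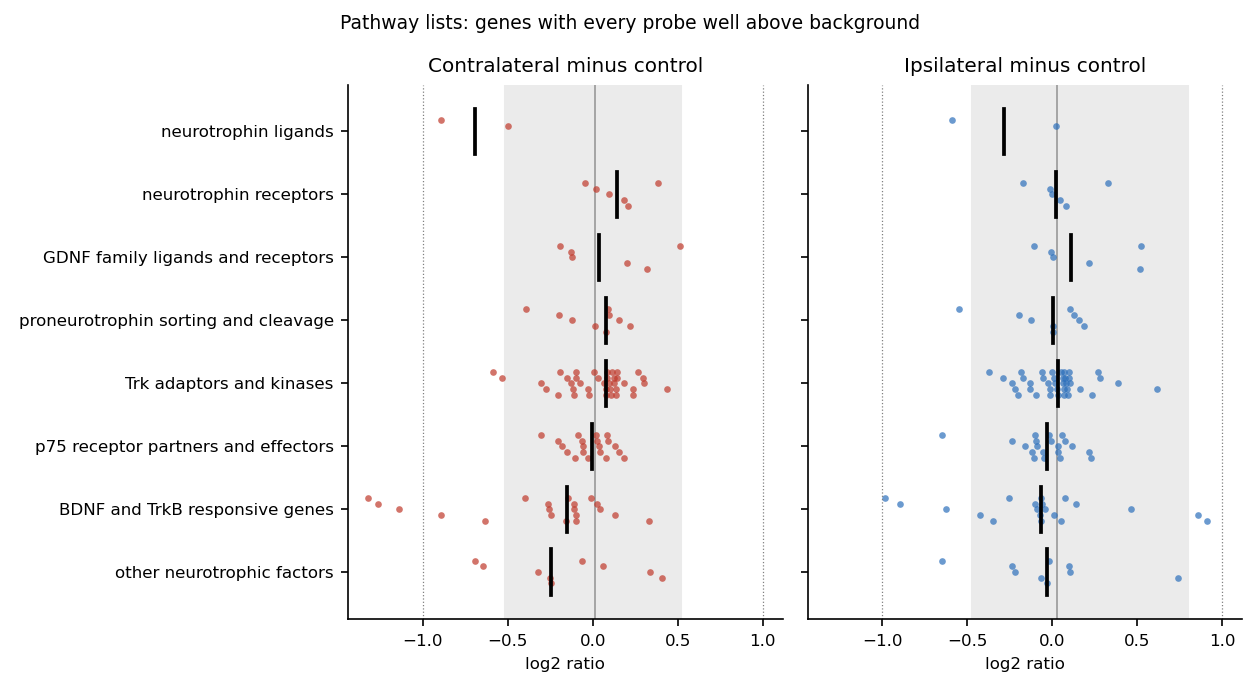
Log2 ratios to control (horizontal axis) of the genes of 8 lists with every probe well above background, 1 point per gene, contralateral on the left and ipsilateral on the right. Black bars are list medians, the grey band holds the central 90% of all 22085 genes, the grey line is their median and dotted lines mark 1 and -1. The ligand median lay at -0.69 contralaterally, and 3 responsive genes lay below -1 there.

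Genes whose pair of ratios to control lay nearest to that of a member were sought among 11249 named genes detected with every probe. Nearest to Bdnf were Clec12b, S100a11 and Slc22a2, at distances of at most 0.020 on the log2 scale. For Ntf3 they were Osbpl11, RT1-A1 and Lama4, at up to 0.032. Near Ngfr lay Gdap1, Pygm and Orai1, near Ntrk2 Zfp287, Uhrf2 and Ndufs4, and near Ntrk3 Mfap3l, B3galnt2 and Ebf1, all within 0.017. Within a distance of 0.1 lay 32 genes for Bdnf and 15 for Ntf3, against 184 for Ngfr, 662 for Ntrk2 and 1041 for Ntrk3. Such counts follow from how far the ratios of a member lie from those of most genes. The distances are also smaller than the scanner error of the ratios. The likeness rests on 2 ratios with a shared control array.

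Markers of cerebellar cortex cells were detected on every array, and some other markers were lower contralaterally, as the ligands were. All 7 Purkinje cell markers and all 7 granule cell markers were detected on every array, with medians of 0.15 and 0.13 contralaterally and 0.15 and 0.05 ipsilaterally. Aldoc and Cbln1 were the brightest of each. The markers of interneurons, astrocytes with Bergmann glia, oligodendrocytes, their precursors and microglia were also all detected and had contralateral medians of 0.06, -0.07, -0.07, -0.05 and 0.10 and ipsilateral medians of 0.07, 0.00, -0.13, 0.14 and 0.08. Their brightest genes were Tfap2b, Aqp4, Mbp, Cspg4 and Cx3cr1, but Aqp4 led its list in the control alone. On both MCAO arrays S100b was brighter than Aqp4. Medians near 0 covered larger ratios of single genes, here named after their values were seen. Gfap had contralateral and ipsilateral ratios of -0.73 and -0.66, Aqp4 -0.55 and -0.45, and Gdf10 of the same astrocyte list 0.39 and 0.27. In that list 3 genes were above and 4 below control on either side. Cx3cr1 had 0.78 and 1.27. Of the 6 microglia markers, 3 were above and 3 below control contralaterally, and 4 above and 2 below ipsilaterally. The 5 vessel markers, led by Cldn5, had medians of -0.24 and -0.14. Choroid plexus markers were lower contralaterally in 6 of 6 detected genes (5 with median scaling) and higher ipsilaterally in 5 of 6, with a summed scaled intensity of 10767 contralaterally, 76713 ipsilaterally and 34006 in the control, mostly from Ttr. With no scaling 3 of the 6 were lower ipsilaterally. Leptomeningeal markers were lower contralaterally in 6 of 6 genes and ipsilaterally in 4 of 6, with sums of 87316, 101335 and 96623, led by Ptgds, and a median of -0.64 contralaterally and -0.30 ipsilaterally. With no scaling or with spike-in scaling all 6 were lower ipsilaterally. With normexp and with 50 added 3 of the 6 were, and the contralateral medians were -0.23 and -0.30. Blood markers, led by Hbb contralaterally and in the control, summed to 33.5, 37.0 and 86.8, with none of 3 detected on all arrays. Of the forebrain markers, led by Neurod2, Tbr1 was not detected on any array, and the sums were 3280.5, 3269.9 and 3170.1, mostly from Neurod2 and Neurod6. The 5 forebrain markers detected with every probe had medians of 0.02 contralaterally and 0.04 ipsilaterally, with 3 above and 2 below control on either side. Dimmer genes of that list differed more. Nrgn had 163 contralaterally, 39.7 ipsilaterally and 45.8 in the control, with ratios of 1.83 and -0.21, and Bcl11b had 24.8, 19.2 and 10.6, with 1.23 and 0.86, both named after their values were seen. Of those for brainstem and deep nuclei, led by Slc17a6, Hoxb5 and Chat were not detected, and the sums were 632, 466 and 631. Choroid plexus and leptomeningeal markers thus had lower signals contralaterally than in the control, as Bdnf and Ntf3 did. The blood sum was lower there too, but it includes signals not well above background. The part of these markers in the result was not tested.

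Over the main setting and 11 alternatives applied to every gene, the contralateral ratio ran from -0.65 to -0.28 for Bdnf and from -1.04 to -0.28 for Ntf3. It ran from 0.23 to 0.42 for Ngfr, from 0.02 to 0.22 for Ntrk3 and from -0.13 to 0.20 for Ntrk2. Bdnf, Ntf3 and Ngfr rest on 1 probe with 1 spot, so that 4 of the 11, keeping outlier spots, the brightest probe and both detection filters, could not change them. Under the other 7 the contralateral signals of both ligands stayed lower and that of Ngfr higher than in the control. Of these, no scaling, median scaling, spike-in scaling and the deposited values only shift whole arrays. The contralateral ratios relative to the median of all genes could not change with them. They stayed at -0.51 for Bdnf, -0.90 for Ntf3 and 0.37 for Ngfr. Ipsilaterally only Ntf3 kept its sign, from -1.12 to -0.040. The sign of Ngfr turned with no scaling, and that of Bdnf with no scaling, spike-in scaling and the deposited values. These settings shift all genes of an array alike. Relative to the median of all genes, the ipsilateral ratio ran from 0.13 to 0.34 for Ngfr and from -0.010 to 0.029 for Bdnf.

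**Figure D4:**
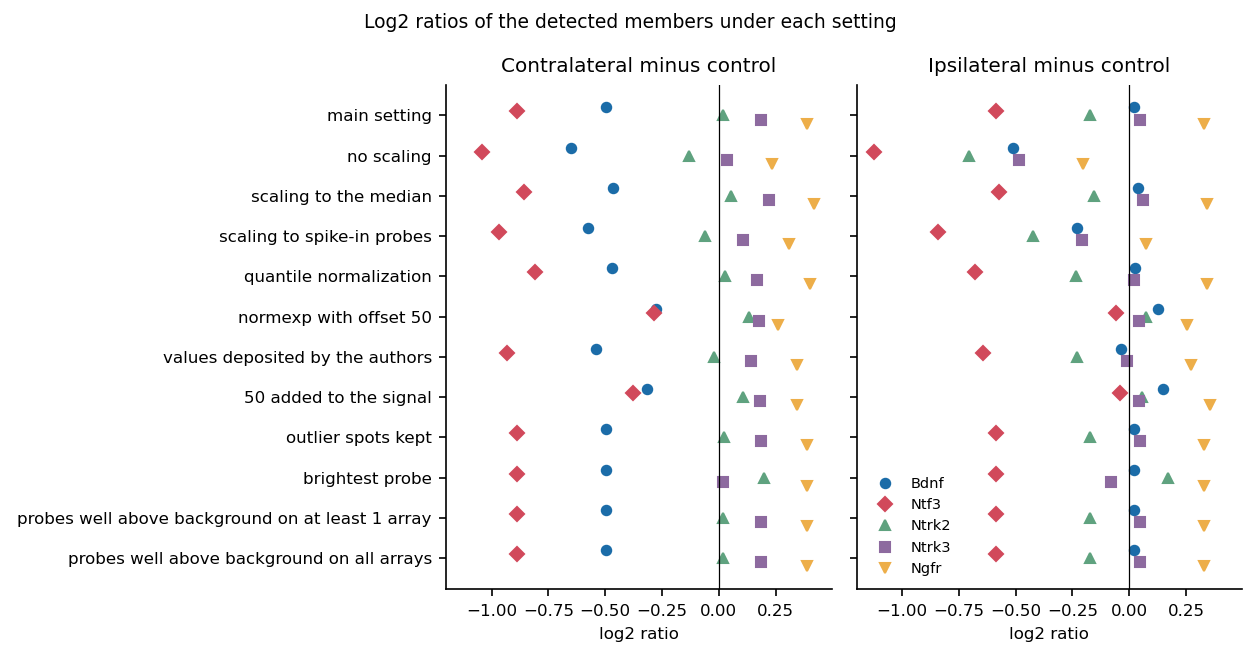
Log2 ratios to control (horizontal axis) of the 5 detected members under the main setting and 11 alternatives (vertical axis), contralateral on the left and ipsilateral on the right. Contralaterally Bdnf and Ntf3 stayed below 0 and Ntrk3 and Ngfr above 0 under each, while Ntrk2 lay on either side of 0, as did Bdnf, Ntrk2, Ntrk3 and Ngfr ipsilaterally.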

How the data were processed

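Cy3-labelled RNA was hybridised to 1-colour Agilent arrays on 1 slide, scanned in 1 scan. The authors deposited the intensity of each spot from Agilent Feature Extraction 12.1.0.3 and a value table, which held the processed intensity times 1 factor per array (1.12, 1.45 and 1.04 for contralateral, ipsilateral and control), with column medians of 139, 140 and 147.

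Log2 processed signals were shifted to a common 75th percentile over spots that are not controls, 759 outlier spots were left out, and spots were averaged per probe and probes per gene. Accessions were named through the RefSeq table of GRCr8, where 17622 of 39957 matched. The number of arrays limits the precision. Ratios past 1 or -1 were counted. Members and lists were chosen with earlier results of these data known. Named were the members and their families, in each list the extremes and genes past 1 or -1, the 3 genes nearest each member, and in each marker list the brightest and undetected genes. Some genes of the lists were left out of this report, and list counts, medians, extremes and sums were taken without them. Alternatives covered scaling, background correction, added constants, outlier spots, probe summaries and dim probes. The counting was tested on simulated data with less noise than the scanner error and changes far past the limits. That test bears on the code and not on the precision of the counts. Normexp was run with limma 3.58.1 under R 4.3.3, and the rest in Python 3.11.15 with numpy 2.4.6, pandas 2.3.3 and matplotlib 3.10.9.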

Additional observations from a re-analysis of the deposited data

Results flagged for a closer look

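Among the members and the pathway genes detected with every probe, Gab2 and Dusp4 had ratios to control that went opposite ways contralaterally and ipsilaterally, each beyond its scanner error. No member did so. These were 2 of 111 genes, where 314 of all 22085 genes, or 1.42%, met the same rule, so 2 is near the background. Gab2, an adaptor of Trk signalling, had scaled intensities of 11.2 contralaterally, 24.9 ipsilaterally and 16.3 in the control, with log2 ratios of -0.53 and 0.62, and its contralateral minus ipsilateral difference was -1.15. Dusp4, a phosphatase of MAP kinases among the BDNF and TrkB responsive genes, had 20.3, 48.3 and 26.7, ratios of -0.40 and 0.86 and a difference of -1.25. Both genes were dim and rest on 1 probe each. With no scaling the ipsilateral ratio of Gab2 was 0.084, within its scanner error of 0.31. With 50 added the contralateral ratios were -0.010 for Gab2 and -0.038 for Dusp4, and with normexp they were 0.051 and -0.027. With 1 array per group these differences between the sides were not tested.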

How the results depend on the processing

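No paired analysis was possible because there was 1 array per group, and no replicate could be left out. The scanner error was taken as the size of a shift worth naming. Of 192 alternative values of the member ratios, 51 equalled the main value, mostly since filters, outlier spots and the brightest probe leave a member with 1 probe as it is. Of the other 141, 111 moved by less, as did 115 of 137 list medians, with 39 more equal to the main value. No scaling and scaling to 8 spike-in probes moved the median of all genes, to -0.14 and -0.07 contralaterally, -0.50 and -0.22 ipsilaterally and 0.37 and 0.16 between the sides. With no scaling the ipsilateral ratio was -0.51 for Bdnf, -1.12 for Ntf3, -0.71 for Ntrk2, -0.49 for Ntrk3 and -0.21 for Ngfr. The difference between the sides was then -0.14, 0.081, 0.57, 0.52 and 0.44 in the same order. With spike-in scaling the ipsilateral ratios were -0.23, -0.84, -0.43, -0.21 and 0.075. Both settings shift all genes of an array alike, so values relative to that median cannot change. Ipsilateral list medians moved likewise with no scaling, to -0.82 for the ligands, -0.51 for the receptors, -0.42 for the GDNF family, -0.53 for sorting and cleavage, -0.50 for Trk adaptors and kinases, -0.57 for p75 partners, -0.60 for responsive genes and -0.57 for other factors. With spike-in scaling they were -0.54, -0.23, -0.14, -0.25, -0.22, -0.29, -0.32 and -0.28.

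Adding a constant before scaling draws dim ratios to control towards positive values by construction, most of all ipsilaterally. The ipsilateral median of all genes rose to 0.12 with either such setting. Not every ratio shrank. With 50 added, the difference between the sides of Ntf3 was -0.34 and the ipsilateral ratio of Bdnf 0.15. With normexp, the contralateral ratio was -0.28 for Bdnf and -0.28 for Ntf3 and the ipsilateral ratio -0.057 for Ntf3 and 0.073 for Ntrk2. The ligand median was then -0.28 contralaterally and 0.036 ipsilaterally, and that of other factors -0.0047 contralaterally. With 50 added, Ntf3 was at -0.38 and -0.040, Ntrk2 at 0.056 ipsilaterally and the ligand median at -0.35 contralaterally and 0.054 ipsilaterally. With probes detected on at least 1 array, a filter that Ntf4 passes by its control signal alone, the ipsilateral ligand median is the value of Ntf3, -0.59. Counts of genes past 1 or -1 went from 500 contralaterally, 860 ipsilaterally and 388 between the sides to 71, 128 and 17 with normexp and to 108, 182 and 34 with 50 added. With another scaling the split of these genes changed. Above 1 and below -1 lay 312 and 188 genes contralaterally, 684 and 176 ipsilaterally and 48 and 340 between the sides. With no scaling these were 218 and 323, 133 and 1139, and 163 and 110. With spike-in scaling they were 261 and 253, 366 and 403, and 82 and 197. Quantile normalization gave 500 and 275 ipsilaterally and 113 and 164 between the sides. The counts came to 2385, 3359 and 2750 over all genes with a probe detected on at least 1 array, a wider set that includes genes near background and in which the contralateral split was turned, with 1043 above 1 and 1342 below -1. For Ntrk2 the ipsilateral ratio was 0.17 with the brightest probe, A_42_P538400, 0.14 with A_44_P668359, 0.18 with A_64_P058883, -1.36 with A_44_P1114028, and 0.12 without that probe, the last chosen after seeing the data. A_44_P1114028 alone gave -0.71 contralaterally and 0.65 between the sides. The cause was not tested. Low signal over background limits Ntf3 and that probe.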
